A study of Homo sapiens with 5 samples.

Results

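Tubulin transcripts were examined in TOV21G cells, an established human line of ovarian clear cell carcinoma, after interference with HDAC6. The set held 10 of the 28442 gene rows of the deposited table, chosen by symbol alone: the alpha-tubulins TUBA1A, TUBA1B, TUBA1C and TUBA4A, the beta-tubulins TUBB, TUBB2A, TUBB2B, TUBB3 and TUBB6, and the gamma-tubulin TUBG1. The members were listed with earlier results of these data known, so the set is not independent of them. All 10 had a row and all 10 passed the filters on low counts.

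The series holds 5 RNA libraries, each from a treatment that was sequenced once. In the shRNA experiment a control hairpin (shControl) was paired with a hairpin against HDAC6 (shHDAC6). Per the labels' protocols 2 HDAC6 hairpin constructs were used and infected cells were selected with puromycin, and the labels do not give which construct this library had. In the drug experiment a vehicle library was paired with ACY1215 and with CAY10603, both small-molecule inhibitors of HDAC6. The labels name neither dose nor time for either inhibitor. The labels call shControl and vehicle control and the other 3 libraries repressed HDAC6. The series title concerns HDAC6 in ovarian cancers with mutated ARID1A, and since every library comes from 1 line, ARID1A status was not compared.

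Microtubules are hollow polymers of alpha- and beta-tubulin dimers, and gamma-tubulin sits in the ring complex from which they are nucleated. HDAC6 is a mainly cytoplasmic deacetylase that removes the acetyl group from lysine 40 of alpha-tubulin inside the microtubule, a mark that the acetyltransferase ATAT1 sets. Humans have several alpha and beta genes, called isotypes, whose proteins differ mostly in their acidic tails. Tubulin messenger RNA is also controlled by the amount of free dimer, since excess dimer sets off decay of ribosome-bound tubulin messages through TTC5, which binds the start of the nascent chain. These data measure RNA, and neither acetylation nor protein.

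The alpha isotypes share the coding stretch that carries the HDAC6 substrate. It is shown here, 5′ to 3′ from the GENCODE release 29 transcripts on GRCh38, because it is the reason the family is tied to HDAC6, with codon 40 in capitals and 4 codons on each side. All 4 stretches lie in coding exon 2.
TUBA1A, chr12:49186705-49186731, minus strand: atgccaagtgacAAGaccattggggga
TUBA1B, chr12:49129594-49129620, minus strand: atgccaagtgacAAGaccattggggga
TUBA1C, chr12:49269567-49269593, plus strand: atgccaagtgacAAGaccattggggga
TUBA4A, chr2:219252102-219252128, minus strand: atgcccagtgacAAGaccattggtgga
TUBA1A, TUBA1B and TUBA1C have the same 27 bases there, and the lysine codon AAG is at position 40 in all 4 genes. The authors' table is of the hg19 build, so these coordinates serve only to place the sequences.

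The tails of the beta isotypes show where these differ and which rows can exchange reads. The last 20 codons before the stop codon are given for the beta genes, with the final codon in capitals, all from exon 4.
TUBB, chr6:30724335-30724394, plus strand: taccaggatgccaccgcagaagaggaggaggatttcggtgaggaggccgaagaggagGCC
TUBB2A, chr6:3153866-3153925, minus strand: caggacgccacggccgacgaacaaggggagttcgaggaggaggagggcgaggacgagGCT
TUBB2B, chr6:3224754-3224813, minus strand: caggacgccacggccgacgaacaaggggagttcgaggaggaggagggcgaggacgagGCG
TUBB3, chr16:89935742-89935801, plus strand: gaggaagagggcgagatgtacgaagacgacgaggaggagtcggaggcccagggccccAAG
TUBB6, chr18:12326068-12326127, plus strand: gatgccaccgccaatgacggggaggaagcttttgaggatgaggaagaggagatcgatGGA
TUBB2A and TUBB2B differ in these 60 bases only in the final codon, GCT against GCG. Over the whole coding sequence TUBA1A and TUBA1B were identical at 97.2% of aligned bases, TUBA1B and TUBA1C at 96.8%, TUBA1A and TUBA1C at 95.9%, and TUBB2A and TUBB2B at 98.1%. TUBA1A and TUBA4A, by contrast, were identical at 84.4%. Reads can therefore be split between TUBA1A, TUBA1B and TUBA1C and between TUBB2A and TUBB2B, and their single values are uncertain to that extent. Sums over such rows are given beside them.

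Depth ran from 43498805 counts in vehicle to 57442767 in shControl, and the tubulin members took between 0.270% (ACY1215) and 0.405% (shHDAC6) of all counts. The targeted transcript, HDAC6, stood at 47.9 CPM in shControl, 29.2 CPM in shHDAC6, 51.0 CPM in vehicle, 33.1 CPM in ACY1215 and 48.2 CPM in CAY10603 (CPM, the count scaled to sequencing depth and library composition). The inhibitors act on the enzyme, so this transcript could serve as a check of the hairpin only. Its log2 fold was -0.72 in shHDAC6 against shControl and nearly as low, -0.62, in ACY1215 against vehicle. With 1 library on each side the knockdown therefore cannot be judged from this value alone. The clear cell carcinoma marker PAX8 (103 to 144 CPM) was present in every library, whereas NAPSA, another marker of this tumour type, was at most 0.40 CPM. Leukocyte and endothelial markers summed to between 2.79 and 6.16 CPM.

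Levels of different genes were compared on the authors' FPKM, fragments scaled by transcript length and depth. The gene order was much the same in all libraries, with TUBA1B, TUBB and TUBA1A at the top, followed by TUBA1C, TUBB3 and TUBB6, and with TUBG1, TUBB2A, TUBB2B and TUBA4A at a lower level. Neighbours in this order were set against the span of the control libraries. TUBA1B (478 FPKM in shControl and 538 in vehicle) and TUBB (440 and 419) did not overlap. TUBA1A (411 and 251) overlapped TUBA1C (280 and 237), and TUBB3 (230 and 115) overlapped TUBB6 (132 and 101). TUBG1 (42.6 and 49.2) lay above TUBB2A (32.4 and 16.6), TUBA4A (23.0 and 30.9) and TUBB2B (25.6 and 21.3), and those last 3 overlapped one another. TUBA1A was the most abundant member in shHDAC6, at 629 FPKM, and TUBB in ACY1215, at 358 FPKM, while TUBA1B led in the other 3 libraries. The place of TUBA1A in shHDAC6 rests on an FPKM that departs from its counts: the ratio of TUBA1A to TUBA1B went from 0.86 in shControl to 1.07 in shHDAC6 in FPKM, but was 0.77 and 0.78 in counts.

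**Figure D1:**
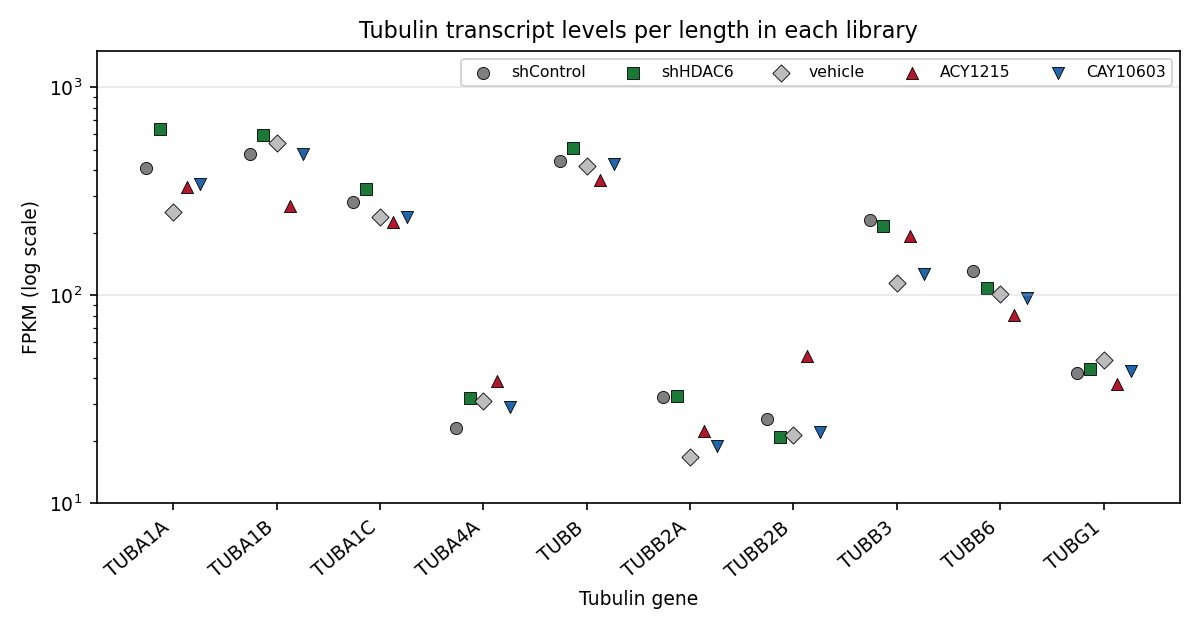
FPKM of the 10 tubulin genes (vertical log axis) in each of the 5 libraries, 1 point per library with no error bar because each treatment has 1 library. TUBA1B is lowest and TUBB2B highest in the ACY1215 library, at 268 and 51.4 FPKM, and TUBA1A and TUBB3 are lowest in vehicle, at 251 and 115 FPKM.

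Across all 3 interventions, each set against the control of its own experiment, no tubulin gene passed the test. With edgeR's quasi-likelihood test 0 of the 10 members were called at an adjusted p under 0.05, against a background of 0% of 13449 genes. At an unadjusted p under 0.05 the count was 1 of 10, against 0.744% of all genes, and DESeq2 and limma-voom also gave 0 adjusted and 1 unadjusted. Without vehicle, without CAY10603 or without the covariate for experiment type it was 0 of 10. The member was TUBA1A, an alpha isotype of the developing nervous system that many cell lines also make, with a pooled log2 fold of 0.48 and a standard error of 0.17 (edgeR unadjusted p = 0.027, adjusted p = 1.00). Its pooled fold stayed between 0.32 and 0.61 when any 1 library was left out. The fold was above 0 in each of the 3 pairs, but both drug pairs share the vehicle library, in which TUBA1A was lowest, so the pairs are not independent. The other members had pooled folds from -0.17 (TUBB6, standard error 0.14) to 0.35 (TUBB2B, standard error 0.43). The folds of TUBB2B, TUBB3, TUBA1B, TUBB and TUBG1 had the other sign when single libraries were left out. The 5 libraries are single treatments of 1 line, nothing says that they came from separate repeated cultures, and the p-values measure only the spread between them.

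Knockdown of HDAC6 was described by shHDAC6 and shControl, with 1 library on each side and no replicate check. In such bulk samples fewer cells of a type and less RNA per cell cannot be told apart. Alpha-tubulin transcripts were more abundant in the shHDAC6 library, while the beta isotypes were divided. TUBA1A stood at 717 CPM in shHDAC6 and 574 CPM in shControl, 1.25-fold, a log2 fold of 0.32 (counting interval 0.30 to 0.34). Its FPKM differed more, 629 against 411, a log2 fold of 0.61. TUBA1B, the main alpha isotype of dividing cells, was at 924 and 746 CPM (log2 fold 0.31) and TUBA1C at 441 and 380.0 CPM (0.22). Summed over these 3 near-identical genes, the level was 2082 CPM against 1699 CPM, a log2 fold of 0.29, which was 0.28 to 0.40 under the other scalings and in FPKM. TUBA4A, a less abundant alpha isotype, had the largest fold of the set in CPM (in FPKM TUBA1A had), 41.8 against 29.5 CPM, a log2 fold of 0.50 (counting interval 0.41 to 0.59). So every alpha member lay higher in shHDAC6, also in FPKM and with the vehicle as control.

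Among the beta isotypes TUBB, the most abundant, was at 1165 CPM in shHDAC6 and 1007 CPM in shControl (log2 fold 0.21). TUBB2A had 46.9 and 46.0 CPM, a difference within counting error. TUBB3, the class III isotype best known from neurons, had 342 and 364 CPM (log2 fold -0.090). TUBB2B (38.0 and 46.7 CPM, log2 fold -0.30) and TUBB6 (166 and 202 CPM, log2 fold -0.28) were lower in shHDAC6. All beta members together had a log2 fold of 0.078. TUBG1, which nucleates microtubules, was at 77.7 and 74.8 CPM, again within counting error.

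None of the folds was large. At 2-fold or more 0 of 10 members differed, against 0.689% of the 10738 genes whose mean reached 5 CPM, and at 1.5-fold 0 of 10 against 5.01%. The median of the members was 0.13 and that of all genes 0.0038, with 7 of 10 members higher against 50.7% of genes. Because the control libraries differ from each other, each library was also placed against both. In shHDAC6, 6 of 10 members lay above both controls (34.3% of all genes did), namely TUBB, TUBB2A and the 4 alpha members, 1 lay below both (TUBB2B, against 31.6%) and 3 between them (against 34.2%). In the same library 30 of 30 genes of the G2 and M phase were higher than in shControl (median 0.49), but 9 of 30 lay above both controls, and their summed level was 5395 CPM in shHDAC6, 4024 CPM in shControl and 5759 CPM in vehicle. Their part in the tubulin values was not tested.

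The ACY1215 pair had the widest spread of tubulin folds, from -0.91 to 1.37, and the alpha isotypes parted. TUBA1A stood at 503 CPM in ACY1215 and 303 CPM in vehicle, 1.66-fold higher, a log2 fold of 0.73 (counting interval 0.70 to 0.76). TUBA1B went the other way, with 439.6 CPM against 825 CPM, 1.88-fold lower, a log2 fold of -0.91 (counting interval -0.93 to -0.88). TUBA1C hardly differed, at 320.5 and 315 CPM (log2 fold 0.024, and -0.078 with scaling by library size alone). TUBA4A was at 52.3 and 39.0 CPM (log2 fold 0.42).
The count of TUBA1A reads per TUBA1B read was 0.37 in vehicle, 1.14 in ACY1215, 0.55 in CAY10603, 0.77 in shControl and 0.78 in shHDAC6. The sum over TUBA1A, TUBA1B and TUBA1C, which a split of reads among them cannot move, was 1263 CPM in ACY1215 and 1443 CPM in vehicle. Its log2 fold was -0.19, and -0.29 to -0.19 under the other scalings. In FPKM not set to the scale of the counts it was -0.32. The median shift of FPKM against counts in this pair was -0.099. The authors' FPKM gave a smaller difference for TUBA1A, 330 against 251, with a log2 fold of 0.49 once set to the scale of the counts, while TUBA1B stayed at -0.91. Among all 5 libraries TUBA1B was lowest in ACY1215, below both controls, whereas TUBA1A lay between the controls.

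The start regions of TUBA1A and TUBA1B, neighbours on chromosome 12 with near-identical coding sequence, held different motifs among those searched, CCAAT, the GC box, TTTGAA and TGACGTCA. The 250 bases before the start in the RefSeq promoter table of GRCh38.p14 are shown because these genes parted in ACY1215. Capitals mark CCAAT or its reverse complement ATTGG, and the GC box GGGCGG or CCGCCC.
TUBA1A, chr12:49189081-49189330, minus strand: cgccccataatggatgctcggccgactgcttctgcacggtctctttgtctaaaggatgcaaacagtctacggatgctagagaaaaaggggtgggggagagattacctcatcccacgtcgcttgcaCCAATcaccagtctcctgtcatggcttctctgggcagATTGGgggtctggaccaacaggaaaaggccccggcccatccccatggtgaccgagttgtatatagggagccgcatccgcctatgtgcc
TUBA1B, chr12:49131396-49131645, minus strand: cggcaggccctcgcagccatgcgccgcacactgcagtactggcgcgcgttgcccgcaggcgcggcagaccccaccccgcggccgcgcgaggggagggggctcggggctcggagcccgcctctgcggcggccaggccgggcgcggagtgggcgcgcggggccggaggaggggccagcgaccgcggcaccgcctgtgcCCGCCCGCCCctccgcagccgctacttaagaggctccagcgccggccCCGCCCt
TUBA1A held 2 CCAAT matches and 0 GC boxes, and TUBA1B held 0 CCAAT matches and 3 GC boxes, of which 2 overlap. The GC content was 56.4% for TUBA1A and 81.2% for TUBA1B, against a median of 58% over all upstream windows. CCAAT occurred in 32.0% and the GC box in 42.6% of the 35116 windows of this length, on either strand. TTTGAA, a motif of late cell cycle genes held by 13.3% of all windows, and TGACGTCA, held by 1.65%, were in neither. The windows of TUBA4A and TUBB2A also held GC boxes and no CCAAT match. Both genes were higher in ACY1215 than in vehicle (log2 folds 0.42 and 0.52). Of the 2 windows of TUBB, 1 held 5 GC boxes and no CCAAT match and the other held both motifs. TUBB was lower in ACY1215 (log2 fold -0.13). The TUBB2A window also held 1 TGACGTCA match. These matches describe letters and not bound sites, and a link of the motifs to the folds was not tested.

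The beta isotypes also parted in ACY1215. TUBB2B, a class II isotype made mainly in neurons, was at 98.5 CPM in ACY1215 and 38.2 CPM in vehicle, 2.58-fold higher, a log2 fold of 1.37 (counting interval 1.29 to 1.45). The other 4 libraries lay between 38.0 and 46.7 CPM, so TUBB2B was more than 2-fold higher in ACY1215 than in any of them. TUBB2A, its near-identical neighbour, was at 33.0 and 23.0 CPM (log2 fold 0.52). The sum of TUBB2A and TUBB2B was 132 CPM against 61.2 CPM, a log2 fold of 1.10. It was 1.00 to 1.11 under the other scalings, and 0.96 in FPKM not set to the scale of the counts. TUBB3 was at 319.5 CPM in ACY1215 and 179 CPM in vehicle, 1.79-fold higher (log2 fold 0.84, counting interval 0.80 to 0.88), but shControl stood higher still, at 364 CPM. MC1R, whose transcripts can read through into TUBB3, had 110 to 217 counts per library, against 7983 to 20983 for TUBB3. TUBB (859.6 and 940.3 CPM, log2 fold -0.13), TUBB6 (129.9 and 146 CPM, -0.17) and TUBG1 (69.5 and 84.7 CPM, -0.28) were lower, and these 3 lay below both controls. Summed over all beta members the log2 fold was 0.12, and 0.016 with scaling by library size alone.

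At 2-fold or more 1 of 10 members differed, TUBB2B, against 4.7% of all genes (1.67% on the higher side). At 1.5-fold it was 4 of 10 against 13.6%, with TUBA1A, TUBB2B and TUBB3 higher (5.85% of genes were) and TUBA1B lower (7.77%). The median was 0.22 against -0.00029 for all genes, and 6 of 10 members were higher against 50% of genes. Set against both controls, 2 of 10 members lay above (TUBA4A and TUBB2B, against 35.2% of genes), 4 below (38.1%) and 4 between (26.6%). With shControl in place of vehicle the median was -0.21 and 2 of 10 members were higher in ACY1215, TUBA4A and TUBB2B, so on the higher side only these kept their direction against both controls. In the ACY1215 library 30 of 30 G2 and M phase genes were lower than in vehicle (median -1.31), and all 30 lay below both controls. In shControl, without HDAC6 intervention, 30 of 30 were also lower than in vehicle (median -0.55). Neuronal markers, listed because TUBB3 and TUBB2B are also neuronal genes, summed to 131 CPM in ACY1215, 83.3 in vehicle, 141 in shControl, 99.3 in shHDAC6 and 87.2 in CAY10603, and INA alone made up 100.5 CPM of the sum in shControl. Over the full list the sum was thus highest in shControl. Without INA, left out after its values were seen, it was 66.4 CPM in ACY1215 and 40.9 to 48.6 CPM in the others. ENO2 made up most of that reduced sum in every library. ENO2 (42.7 CPM), SNAP25 (10.3), RBFOX3 (5.96), SYP (2.34) and MAP2 (1.53) all had their highest level in ACY1215. These too were picked after their values were seen, and other genes of the list went the other way. DCX was lowest in ACY1215, at 2.51 CPM against 2.71 to 4.57 CPM in the other libraries. NEFM and NEFH, which had few counts, were below vehicle there (log2 folds -1.20 and -1.03). A mean of 5 CPM was reached by 2 of 18, INA and ENO2, and GAP43, SYN1 and ELAVL3 were at most 0.090 CPM in every library. The part of either list in the tubulin values was not tested.

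**Figure D2:**
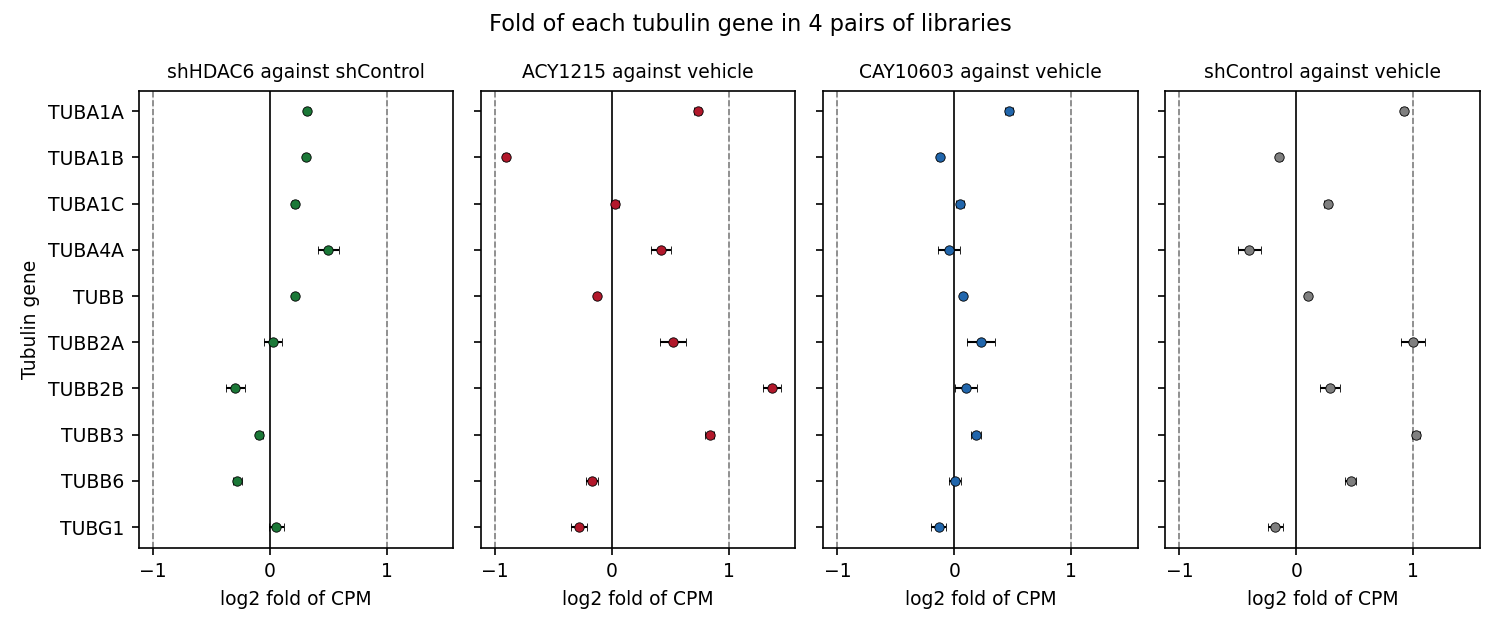
Log2 fold of CPM of each tubulin gene (horizontal axis) in 4 pairs of libraries, with bars for the 95% counting interval and dashed lines at 2-fold. TUBA1A and TUBA1B lie on opposite sides in ACY1215 against vehicle, at 0.73 and -0.91, and CAY10603 folds stay between -0.13 and 0.47.

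In the CAY10603 library the tubulin transcripts lay near vehicle, apart from TUBA1A. TUBA1A was at 420 CPM against 303 CPM in vehicle, 1.39-fold higher. Its log2 fold was 0.47 (counting interval 0.44 to 0.50), which exceeded the fold of 99.2% of genes. In shControl against vehicle, a pair without HDAC6 intervention, the log2 fold of TUBA1A was 0.92, above that of 99.4% of genes. For CAY10603 against vehicle the authors' FPKM gave 0.50 on the same scale. TUBA1B was at 757 and 825 CPM (log2 fold -0.12), TUBA1C at 326 and 315 CPM, and TUBA4A at 37.9 and 39.0 CPM. Of the beta isotypes TUBB2A had 27.0 and 23.0 CPM (log2 fold 0.23, counting interval 0.11 to 0.35) and TUBB3 203 and 179 CPM (0.18). TUBB, TUBB2B and TUBB6 had log2 folds of 0.076, 0.098 and 0.0077, and TUBG1 was at 77.3 and 84.7 CPM (-0.13). The sum of TUBA1A, TUBA1B and TUBA1C had a log2 fold of 0.059, and 0.0094 with scaling by library size alone.
At 2-fold 0 of 10 members differed, against 0.27% of genes, and at 1.5-fold 0 of 10 against 1.04%. The median was 0.062, against 0.0053 for all genes, and 7 of 10 members were higher against 51.5% of genes, or 5 of 10 with scaling by library size alone. All 10 members lay between shControl and vehicle in the CAY10603 library, against 43.6% of all genes, and 0 lay above (28.2%) or below (28.1%) both.

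Both inhibitors were set against the same vehicle library, and neither doses nor times are known, so the values stand side by side with no comparison. TUBA1A had 0.73 for ACY1215 and 0.47 for CAY10603, TUBA1B -0.91 and -0.12, TUBB2B 1.37 and 0.098, and TUBB3 0.84 and 0.18.

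The control libraries lay as far apart for some tubulin genes as the interventions from their controls. TUBB3 was at 364 CPM in shControl and 179 CPM in vehicle, 2.03-fold (log2 fold 1.02), TUBB2A at 46.0 and 23.0 CPM (1.00) and TUBA1A at 574 and 303 CPM (0.92). TUBB6 had 0.46, TUBB2B 0.29 and TUBA1C 0.27, while TUBA4A (-0.40), TUBG1 (-0.18) and TUBA1B (-0.15) were lower in shControl. At 2-fold 1 of 10 members differed, TUBB3, against 1.42% of genes (0.512% on the higher side). At 1.5-fold it was 3 of 10, all higher, against 6.72% (2.78% higher), and 7 of 10 were higher at any size against 52.3%. The control libraries differ in experiment type, and this cannot be told apart from other differences between single libraries. For TUBA1A, TUBB2A and TUBB3 vehicle was the lowest of all 5 libraries, so the folds of both drugs for these genes rest on that library. Against shControl the log2 folds of both drugs were below 0 for all 3 genes.

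The share of each isotype in the summed FPKM of its class shows the same values within a library. TUBA1A made up 23.7% of alpha FPKM in vehicle, 31.6% in CAY10603, 34.5% in shControl, 38.3% in ACY1215 and 39.97% in shHDAC6. By CPM, which is not per length, the TUBA1A share was 33.7% in shHDAC6 and 33.2% in shControl, and ACY1215 was highest at 38.2%, so the top place of shHDAC6 holds in FPKM only. TUBA1B made up 50.9% in vehicle, 43.9% in CAY10603, 40.1% in shControl, 37.4% in shHDAC6 and 31.1% in ACY1215. TUBA4A had its largest share in ACY1215, 4.49%, and its smallest in shControl, 1.93%. Among the beta isotypes TUBB held between 50.8% (ACY1215) and 62.2% (vehicle), TUBB3 between 17.1% (vehicle) and 27.3% (ACY1215), and TUBB6 between 11.4% (ACY1215) and 15.3% (shControl). TUBB2B made up 7.30% in ACY1215 and between 2.34% and 3.19% in the other libraries.

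**Figure D3:**
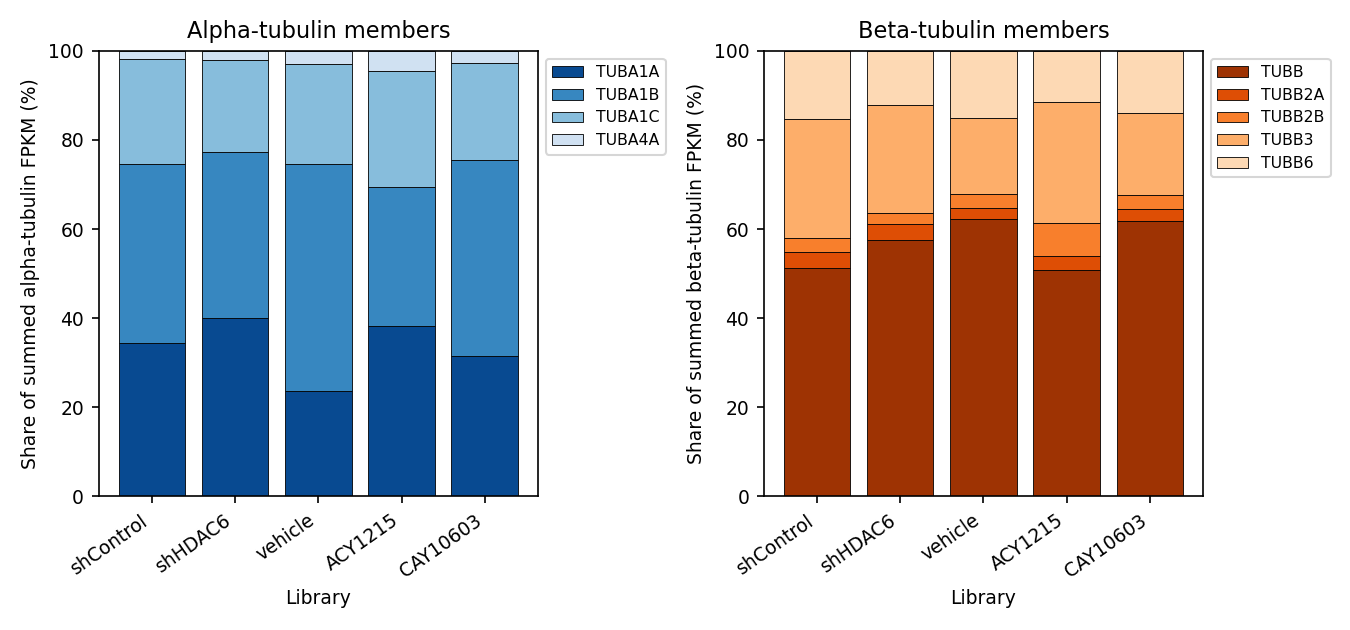
Share of each isotype in the summed FPKM of the 4 alpha members (left) and of the 5 beta members (right), in percent, 1 bar per library. The TUBA1A part is smallest in vehicle (23.7%), the TUBA1B part in ACY1215 (31.1%), and the TUBB2B part is largest in ACY1215 (7.30%).

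The genes most like the 3 members with the widest range were sought over the 5 libraries by the root mean square difference of centred log2 CPM among 10737 genes. For TUBB2B they were KIAA1244 (0.053), SPTB, a spectrin (0.053), and ERC2, a protein of presynaptic active zones (0.076). For TUBA1A they were the kinase MAPK11 (0.12), TUBB2A (0.13) and the nucleoside diphosphate kinase NME1 (0.13). TUBA1A and TUBB3 differed by 0.18, and TUBA1A and TUBA1B by 0.55. For TUBA1B they were ZNF43 (0.032), PHF15 (0.042) and STARD8 (0.056). With 5 points per gene these are descriptions.

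The rest of the tubulin system was described from lists of related genes. None of their genes was called in the pooled edgeR test, in either direction. The counts were 0 of 5 other tubulins tested and 0 of 22 genes of acetylation and tail modification. They were 0 of 23 for folding and autoregulation genes and 0 of 14 for genes of the gamma-tubulin ring complex. Over all 13449 genes 0% were called, so these counts are not particular to the lists. The share of all genes at an unadjusted p under 0.05 in the same edgeR test was 0.744%. At an unadjusted p under 0.05 the count was 1 over the 4 lists, HDAC6 itself (pooled log2 fold -0.50, edgeR unadjusted p = 0.048, adjusted p = 1.00). Of 13 rows of other tubulins 3 had no count in any library (TUBA3C, TUBA3D and TUBA4B), and 5 reached a mean of 5 CPM. TUBB4B, a widely made beta isotype, was at 185, 221, 169, 132 and 164 CPM in shControl, shHDAC6, vehicle, ACY1215 and CAY10603, with log2 folds of 0.25, -0.36 and -0.038 in the 3 interventions. TUBB4A, a brain isotype, had 0.15, 0.40 and 0.070, TUBD1, a delta-tubulin of centrioles, 0.37, -0.13 and 0.17, and TUBE1, an epsilon-tubulin of centrioles, -0.25, -0.43 and -0.29. TUBG2, the second gamma gene, had 0.025, -0.10 and -0.25.

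The list of tubulin acetylation and tail modification counts enzymes and also partners such as SVBP. Of its expressed genes 13 of 17 were higher in shHDAC6 (median 0.13). In ACY1215 5 of 17 were higher (median -0.099) and in CAY10603 5 of 17 (median -0.045), with 0 at 2-fold in any of these pairs. Over all genes 50.7%, 50% and 51.5% were higher in these pairs, and 6 of 17 of the list were higher in shControl than in vehicle (median -0.13), a pair without HDAC6 intervention. HDAC6 itself had the lowest fold of the list in shHDAC6 and in ACY1215, -0.72 and -0.62, and -0.082 in CAY10603. ATAT1, which acetylates lysine 40, was rare, at 2.55 to 4.25 CPM, with folds of -0.19, 0.37 and 0.54. SIRT2, another tubulin deacetylase, had 0.16, -0.44 and -0.37. TTL, the tyrosine ligase, lay within 0.11 of its control in all 3 pairs. The tyrosine-removing protease VASH1 was at 9.21 CPM in ACY1215 and 2.60 to 4.12 CPM in the other libraries, a log2 fold of 1.15 against vehicle, from 481 and 184 counts, and its mean lay under 5 CPM. Its partner SVBP, listed as CCDC23, had 0.23, -0.053 and 0.13. The polyglutamylases TTLL4 and TTLL7 had the highest folds in shHDAC6 (0.56) and in ACY1215 (0.46). AGBL5 (0.32) and NICN1 (-0.11) followed in shHDAC6, TTLL12 (0.21) and TTLL1 (-0.49) in ACY1215, and TTLL7 (0.21) and TTLL6 (-0.27) were at the ends of the list in CAY10603 beside CCDC23 and SIRT2.

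Folding and autoregulation genes, which include the chaperonin CCT, prefoldin and the tubulin cofactors, stayed close to their controls. The list also counts TTC5 and TBCK, which are not tubulin cofactors. Of 23 genes 10 were higher in shHDAC6 (median -0.042), 18 in ACY1215 (median 0.14) and 17 in CAY10603 (median 0.032). Over all genes 50.7%, 50% and 51.5% were higher in these pairs. In shControl against vehicle, a pair without HDAC6 intervention, 13 of 23 were higher (median 0.057). In shHDAC6 the prefoldin subunits PFDN1 and PFDN2 were lowest (both -0.45) and ARL2, which acts with the cofactors, highest (0.48), before TBCD (0.26). In ACY1215 TBCEL (0.44) and PFDN2 (0.28) were highest and TBCC (-0.46) and CCT5 (-0.21) lowest. In CAY10603 ARL2 (0.15) and TBCA (0.13) were highest and TBCC (-0.17) and CCT7 (-0.054) lowest. TTC5 had 21.3 to 24.3 CPM, with folds of -0.042, 0.10 and 0.094.

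The gamma-tubulin ring complex and its anchors had 11 of 14 genes higher in shHDAC6 (median 0.15), 1 of 14 in ACY1215 (median -0.30) and 2 of 14 in CAY10603 (median -0.12). In shHDAC6 the subunit TUBGCP3 and MZT2A were highest (both 0.46) and LGALS3BP (-0.44) and NME7 (-0.35) lowest. In ACY1215 MZT2A (-0.65) and the centrosomal scaffold CDK5RAP2 (-0.62) were lowest and NME7 (0.068) and TUBGCP2 (-0.020) highest. In CAY10603 MZT2A (-0.30) and TUBGCP6 (-0.25) were lowest and AKAP9 (0.23) and MZT1 (0.098) highest. Against vehicle the shControl library also had 11 of 14 lower (median -0.21), so the sign in ACY1215 and in CAY10603 was shared with a library that had no HDAC6 intervention.

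**Figure D4:**
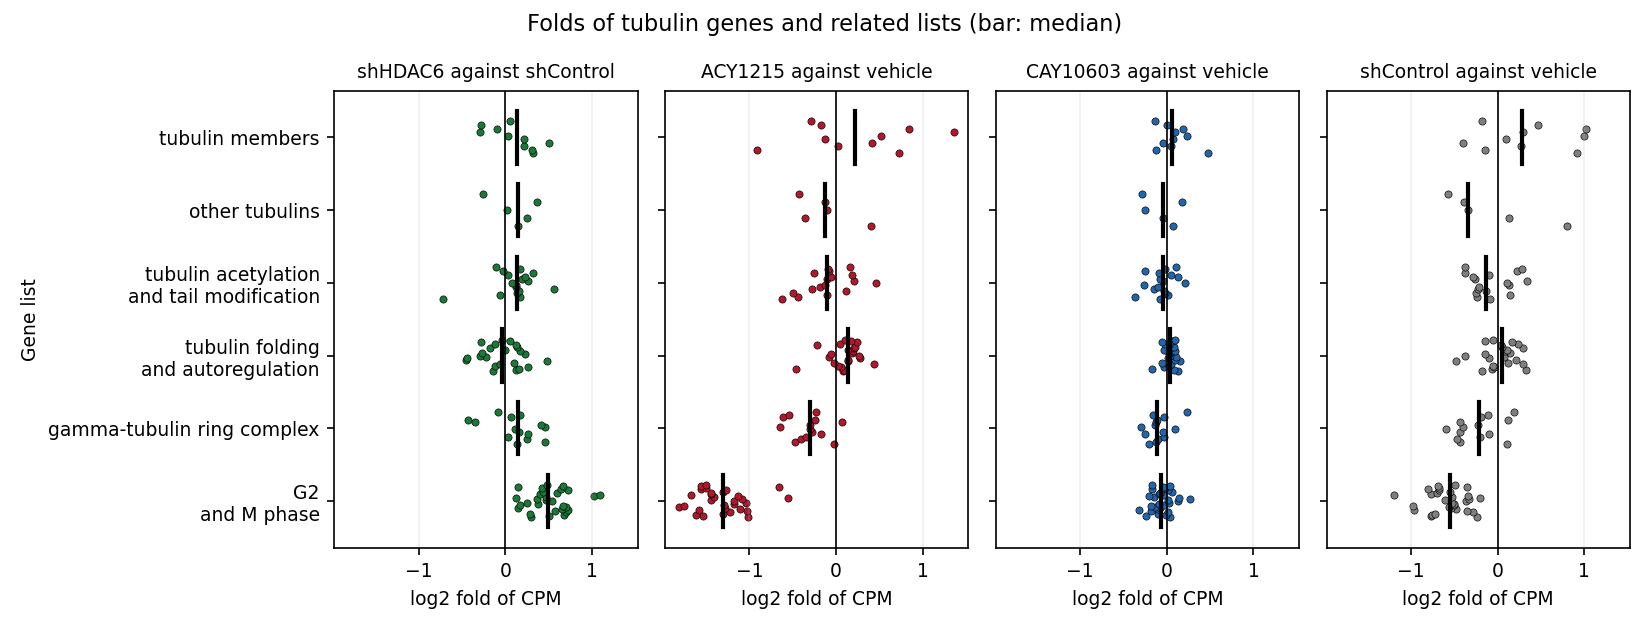
Log2 fold of CPM (horizontal axis) of the 10 tubulin genes, of 4 related lists and of the G2 and M phase list in 4 pairs of libraries, 1 point per gene that reached a mean of 5 CPM and a bar at the median. The tubulin medians are 0.13, 0.22, 0.062 and 0.28, and those of the G2 and M phase list 0.49, -1.31, -0.061 and -0.55.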

How the data were processed

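RNA of 5 libraries was measured by total RNA sequencing. Counts and FPKM per gene were deposited, per the file headers. The deposited counts are whole numbers, taken to be rounded expected counts since RSEM is named. RSEM 1.2.3 and edgeR are named for build hg19 in the submitters' processing notes, without roles; an aligner is not given in the sources used here. DMSO columns were read as the vehicle. 2 blank rows were left out. Counts were tested with edgeR 4.0.16 in R 4.3.3 (TMM, robust quasi-likelihood test, experiment type as covariate, a minimum of 1 CPM in 2 libraries, Benjamini-Hochberg over 13449 genes, 2 residual degrees of freedom). DESeq2 1.42.0 and limma 3.58.1 were alternatives. The standard error was the log2 fold divided by the root of F. Pairs were compared by log2 CPM (TMM, prior count 2) over genes whose mean reached 5 CPM, with exact binomial intervals at 95%, which cover counting error only. Depth was 43498805 to 57442767 counts. The edgeR script was tested on simulated data. All 10 members, and of each list the 2 highest and 2 lowest folds per pair, with HDAC6, ATAT1, SIRT2, TTL, VASH1, SVBP and TTC5 in any case, were named. Members and lists were chosen with earlier results of these data known. Some items are not reported here.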

Additional observations from a re-analysis of the deposited data

How the results depend on the processing

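In the pooled test 0 tubulin genes were called under every alternative that was run (other scaling, no low-count filter, no covariate, DESeq2, limma-voom, and each library left out in turn). Over all genes the adjusted count was 0, but 3 without vehicle and 4 without ACY1215. With 1 library left out the pooled log2 fold ran from -0.46 to 0.31 for TUBA1B, -0.024 to 0.21 for TUBB, -0.30 to 0.87 for TUBB2B, -0.090 to 0.55 for TUBB3 and -0.21 to 0.056 for TUBG1. Without vehicle only the shRNA pair informs the contrast, and without ACY1215 TUBA1B was at 0.086 and TUBB2B at -0.11. Of the counts at 2-fold, shHDAC6 had 2 of 10 members with vehicle as control, against 128 of 10738 genes. ACY1215 had 2 with scaling by library size alone, against 541 genes, and that scaling moved the median of all genes to -0.10. At 1.5-fold ACY1215 had 4, against 1462 genes. For shControl against vehicle the count was 2 with DESeq2 size factors (152 genes), 0 with library size alone (162 genes) and 3 at 1.5-fold (722 genes). TUBB2A and TUBB3 lie at the 2-fold boundary in that pair. The TUBA1A share of alpha transcripts in vehicle was 20.4% in CPM, which is not per length. No paired analysis was possible because the labels give no replicate numbers. Experiment type, which ties each intervention to its own control, was a covariate of the pooled test.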

Other observations

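Neuronal genes outside the tubulin family were mostly near the detection limit. SNAP25, a synaptic fusion protein, was at 10.3 CPM in ACY1215, 2.31 in vehicle, 2.40 in CAY10603, 0.76 in shControl and 0.83 in shHDAC6. The neurofilament gene INA had 100.5 CPM in the control hairpin library and 55.0 CPM in shHDAC6. Of the drug libraries ACY1215 had 64.2 CPM of INA, vehicle 39.4 CPM and CAY10603 38.5 CPM. Fibroblast markers summed to between 26.4 and 42.0 CPM over the 5 libraries, most of it COL1A2.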
